A study of Homo sapiens with 3 samples.

Results

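The 2 inhibitor-treated tumors of this series were set directly against each other, the EZH2i tumor against the CDK2i tumor, to describe which gene programs set them apart. Both were xenografts of SUM-149, a basal-like triple-negative breast cancer cell line from an inflammatory carcinoma, injected with Matrigel into the mammary fat pads of female Nu/Nu mice, which lack T cells but keep other immune and stromal cells. By the sample labels, the CDK2i tumor was treated for 10 days with dinaciclib and the EZH2i tumor for 10 days with EPZ6438. The study's methods name this drug too for its tumor-bearing mice, but 1 legend on xenografts of this cell line names another EZH2 inhibitor, GSK343. A vehicle-treated tumor makes up the third library, and its levels are given beside the others but took no part in any difference. RNA was measured by RNAseq with 1 library per condition and deposited as log2 FPKM (fragments per kilobase of transcript, scaled to library depth, on the log2 scale) on GRCh37. No replicate error could therefore be estimated, no test was possible, and every difference below is a difference between these 2 libraries. Members of the comparison were the genes with a mean of both treated tumors above log2 FPKM 1 and a value above 0 FPKM in both, which left 11092 of the 29689 genes in the table. Of the 18597 genes outside it, 8632 were listed at 0 FPKM in at least 1 of the treated tumors and 9965 had a lower mean. The last gene inside the limit had a mean of 1.001 and the first outside it a mean of 1.0. A gene below log2 FPKM 1 in 1 treated tumor was a member only through its level in the other. The differences of such genes are in part set by this rule.

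Dinaciclib blocks CDK1, CDK2, CDK5 and CDK9. CDK1 and CDK2 drive DNA replication and entry into mitosis, and CDK9, as part of P-TEFb, releases paused RNA polymerase II into elongation, so that blocking it lowers transcripts with a short life first. EPZ6438 blocks the methyltransferase activity of EZH2, the subunit of polycomb repressive complex PRC2 that places the repressive mark H3K27me3 on the promoters of developmental genes. In basal-like breast cancer both proteins have been studied as regulators of cell lineage, which is read from keratins and hormone receptor genes.

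The difference of a gene is its log2 FPKM in the EZH2i tumor minus that in the CDK2i tumor, so a value of 1 is a 2-fold higher level in EZH2i and a value of -1 a 2-fold higher level in CDK2i. Over the 11092 members the median difference was 0.35, a 1.27-fold higher level in EZH2i, with an SD of 0.90 and a range from -4.67 to 5.90. Past 2-fold, 2373 members were higher in EZH2i (21.4% of the 11092) and 638 were higher in CDK2i (5.75%). This balance moved with the scaling between the libraries, and with the median member set to 0 the counts were 1290 (11.6%) and 1216 (11%). EZH2i-high genes made up 78.8% of the calls as deposited and 51.5% after centring. The recovered depth was about 19100000 fragments in CDK2i, 17500000 in EZH2i and 16800000 in vehicle.

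The difference also ran with the base composition of the transcripts. Across genes, which are not independent replicates and share both libraries, its Spearman correlation was -0.46 with the GC content of the transcript, 0.32 with its length and -0.39 with the mean level of the gene (10287 members with an annotated transcript). The median difference fell from 0.73 for transcripts of up to 40% GC to -0.32 for those above 60% GC. A cubic trend in GC content and length was therefore removed as an alternative, after which 910 annotated members (8.85%) were past 2-fold higher in EZH2i and 698 (6.79%) higher in CDK2i, against 2121 (20.6%) and 586 (5.7%) of the same genes before. Genes of a low level still tended to be higher in EZH2i after this step. List medians are given below as deposited and with the trend removed, and for the main lists beside the members of a like level, meaning a mean level within 0.5 of the median over the list. Whether the trend came from the treatment or from the making of the libraries cannot be told apart with 1 library per condition.

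**Figure D1:**
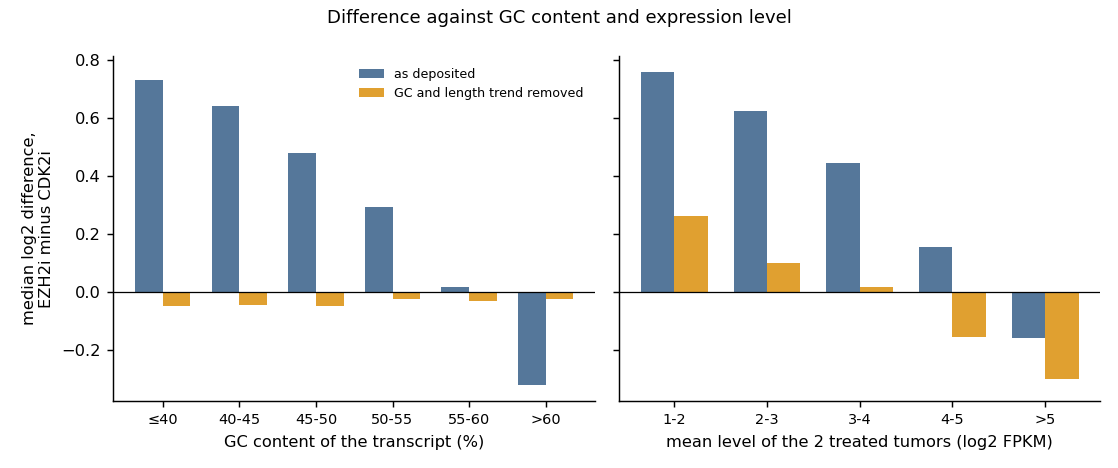
Median log2 difference (EZH2i minus CDK2i) of the members in bins of transcript GC content (left) and of mean level (right), as deposited in blue and with the GC and length trend removed in orange. The deposited medians run from 0.73 to -0.32 over the GC bins, and the trend-removed medians stay close to 0 there but run from 0.26 to -0.30 over the level bins.

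**Figure D2:**
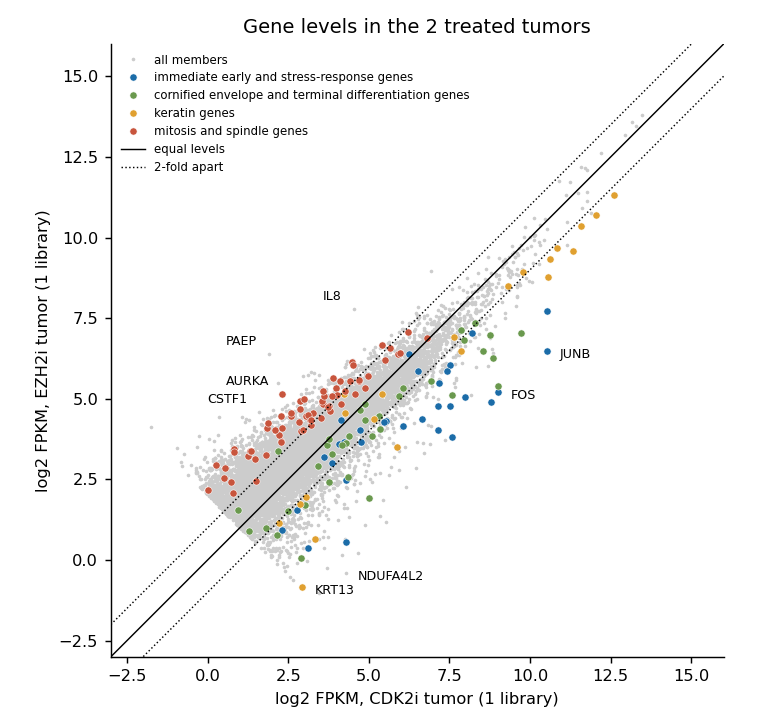
Level of each of the 11092 members in the CDK2i tumor (horizontal, log2 FPKM) and in the EZH2i tumor (vertical, log2 FPKM), 1 library each, with 4 gene lists in color. Solid and dotted lines mark equal levels and levels 2-fold apart. The mitosis genes lie above the line of equal levels, and the immediate early, keratin and cornified envelope genes lie mostly below it.

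The tumor tissue was checked against cell type markers. All 10 epithelial markers were members, with KRT14 at log2 FPKM 11.26 in vehicle, 12.61 in the CDK2i tumor and 11.31 in EZH2i and EPCAM at 6.05, 6.21 and 6.34. ESR1, the estrogen receptor, was low at -0.34, 0.14 and -0.07, and PGR was at or near 0 in each tumor. None of the 9 endothelial markers in the table was a member. Of the macrophage markers only CD14 and ITGAM were members, with differences of -1.34 and -0.62, while CD68 and AIF1 were listed at 0 FPKM in both treated tumors. Of the fibroblast markers FBLN1 (-2.11), COL1A1 (-0.64), LUM (-0.40) and DCN (1.46) were members, and THY1 was listed at 0 FPKM in all tumors. FABP4, an adipocyte marker, was at 5.03, 4.22 and 1.60, and the other adipocyte markers were below log2 FPKM 2 in each tumor. The values are aligned to the human genome, and the sources used here do not state how mouse reads were handled. In such bulk tissue fewer cells of a type and less RNA per cell cannot be told apart.

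Genes of mitosis had the highest median difference of the program lists, toward the EZH2i tumor. They build and run the spindle, and their transcripts accumulate from G2 to M phase. Of 69 listed genes 68 were members, and all 68 had a deposited difference above 0 (67 with the median member set to 0). Past 2-fold, 51 were higher in EZH2i and none higher in CDK2i, where 21.4% and 5.75% of all members passed, and 37 stayed past 2-fold after centring. The median difference was 1.40, and 0.86 with the trend removed, which left 25 genes past 2-fold. Among the 2219 members of a like level the medians were 0.35 and -0.04. The median level of the list was 3.62 in vehicle, 3.18 for CDK2i and 4.60 for EZH2i, and in 56 of 68 genes the vehicle level was nearer to CDK2i than to EZH2i. The list was thus spread on both sides of the vehicle level, lower in CDK2i and further up in EZH2i.

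AURKA encodes Aurora A, the kinase that matures centrosomes and builds the spindle poles. It stood at log2 FPKM 4.32 in vehicle, 2.31 with CDK2i and 5.16 with EZH2i, a difference of 2.85 ± 0.09 (SE from counting alone, from about 277 and 1833 fragments), and it led the list. Its neighbor CSTF1, a subunit of the complex that cleaves pre-mRNA at the polyadenylation site, stood at 4.31, 1.61 and 4.58, a difference of 2.97 ± 0.09. Both genes were well below the vehicle level in CDK2i, and in EZH2i CSTF1 was close to it and AURKA above it. On chromosome 20 of GRCh37, AURKA (54944445 to 54967393, minus strand) and CSTF1 (54967427 to 54981418, plus strand) start 34 bases apart and run in opposite directions. Of 376 pairs of members with such head-to-head starts within 300 bases, this was the only pair with both genes past 2 on the log2 scale. In 27 of those pairs both genes were past 2-fold higher in EZH2i, in 122 only 1 of them was, and in none were both higher in CDK2i, where 21.4% and 5.75% of single members passed. With the trend removed, the Pearson correlation between the genes of a pair was 0.09 over the 376 pairs, which share both libraries. Whether the counting used strand is not given in the sources used here.

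The kinesin KIF18A, which dampens chromosome oscillations at the metaphase plate, stood at 2.26, 0.82 and 3.44 (difference 2.62 ± 0.13). PLK4, the kinase that starts centriole duplication, stood at 1.88, 0.83 and 3.34 (2.51 ± 0.13). CDCA2, which brings protein phosphatase 1 to anaphase chromatin, stood at 1.90, 0.25 and 2.94 (2.69 ± 0.17). In each of these 3 genes the vehicle tumor lay between the treated tumors. CKAP2 and CENPE, a spindle protein and a kinetochore motor, differed by 2.36 and 2.30. Proliferation markers in wide use followed, with MKI67 at 3.06, 2.59 and 4.57 (1.99) and TOP2A at 4.76, 4.50 and 6.05 (1.54), both genes named after their values were seen. At the other end, UBE2S, which extends ubiquitin chains for the anaphase-promoting complex, stood at 6.67, 6.79 and 6.88, and STMN1 at 6.09, 5.98 and 6.42, so both lay close to level between the treated tumors.

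The promoters of many mitotic genes carry a cell cycle homology region, a short element through which the DREAM complex represses them outside G2 and M. A search of RefSeq promoter windows (GRCh38.p14, 250 bases before to 50 after the gene's most upstream start, both strands) for its core TTTGAA found it in 39 of 59 windows of the mitosis members (66.1%), in 752 of 8259 windows of all members (9.11%) and in 4229 of all 27305 windows (15.5%). This motif was chosen after the values were seen, and a match of 6 bases is a description of the sequence only. The 250 bases before the start of PLK1 (4.36, 3.87 and 5.10 in vehicle, CDK2i and EZH2i) and of KIF18A are shown with the match in capitals, which in both lies shortly before the start.
PLK1, chr16:23678639-23678888, plus strand: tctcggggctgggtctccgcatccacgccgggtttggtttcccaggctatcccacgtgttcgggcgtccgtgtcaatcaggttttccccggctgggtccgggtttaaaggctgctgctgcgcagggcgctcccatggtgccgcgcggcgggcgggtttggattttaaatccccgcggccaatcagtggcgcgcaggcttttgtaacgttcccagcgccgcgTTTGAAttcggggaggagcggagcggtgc
KIF18A, chr11:28108157-28108406, minus strand: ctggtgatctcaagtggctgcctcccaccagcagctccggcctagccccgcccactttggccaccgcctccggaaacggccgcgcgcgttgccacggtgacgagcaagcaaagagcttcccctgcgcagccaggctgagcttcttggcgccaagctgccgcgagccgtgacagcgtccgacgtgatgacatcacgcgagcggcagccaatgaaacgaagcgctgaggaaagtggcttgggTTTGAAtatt

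Genes of DNA replication and S phase differed in the same direction by less. Of 58 listed genes 55 were members, with a median difference of 0.88 (0.50 with the trend removed, against 0.38 and -0.02 for members of a like level). Of these 55, 22 were past 2-fold higher in EZH2i (40%, against 21.4% of all members and 16.2% of those of a like level). None was past 2-fold higher in CDK2i. After centring 19 stayed past 2-fold, and with the trend removed 13. MCM10, which helps activate the replicative helicase, stood at 1.44, 0.33 and 2.95, a difference of 2.63 ± 0.14. CDC6, which loads that helicase onto origins, stood at 2.60, 0.80 and 3.29 (2.49 ± 0.12), and ORC1, of the origin recognition complex, at 2.63, 1.15 and 3.24 (2.09 ± 0.14). MCM10, CDC6 and ORC1 were 4.25-fold to 6.19-fold apart between the treated tumors, with vehicle nearer to EZH2i for CDC6 and ORC1 and nearer to CDK2i for MCM10. DTL, GINS3 and POLE2 differed by 2.41, 2.18 and 1.98. Only 4 members had a deposited difference below 0, of which the polymerase subunits POLD2 (-0.41) and POLD1 (-0.31) were the lowest, and with the median member set to 0 this number was 10.

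DNA repair and homologous recombination genes had a median difference of 1.13 over 47 members of 55 listed, with all 47 above 0 (43 with the median member set to 0). Of these, 25 were past 2-fold higher in EZH2i (53.2%, against 21.4% of all members and 28.6% of those of a like level). With the trend removed the median was 0.47 and 13 stayed past 2-fold, and members of a like level had medians of 0.60 and 0.09. XRCC2, a gene of homologous recombination, had the largest difference of the list, at 1.54 in vehicle, -0.35 in CDK2i and 2.85 in EZH2i (3.20 ± 0.16, from about 97 and 814 fragments). EXO1, the exonuclease that resects DNA ends, stood at 1.96, 0.15 and 3.14 (2.99 ± 0.16), and BRCA2 at 0.36, -0.16 and 2.28 (2.44 ± 0.10). These genes were at low levels in CDK2i and highest in EZH2i. Each was below log2 FPKM 1 in CDK2i and passed the limit on the mean only through EZH2i. The helicase BLM (2.26), the mismatch sensor MSH6 (2.26) and RIF1 (2.19) came next. PARP1 and XRCC6, at high levels in each tumor, differed by only 0.05 and 0.12.

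Immediate early genes had the lowest median difference, toward the CDK2i tumor, of the program lists with more than 2 members. They encode transcription factors and feedback phosphatases that are switched on within minutes of a growth factor or stress signal, without new protein synthesis, and their transcripts are short-lived. Of 37 listed genes 32 were members, of which 24 were past 2-fold higher in CDK2i (75%, against 5.75% of all members) and none past 2-fold higher in EZH2i. All 32 lay below the median difference of all members. The median difference was -1.52, and -1.77 with the trend removed, where 25 were past 2-fold. Members of a like level had medians of -0.04 and -0.23. The median level was 4.24 in vehicle, 6.15 for CDK2i and 4.29 for EZH2i, and the vehicle level was nearer to EZH2i in 29 of 32 genes. The EZH2i tumor thus lay close to vehicle in this program and the CDK2i tumor above both.

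JUNB (chromosome 19 of GRCh37, 12902300 to 12904129), a subunit of the AP-1 transcription factor, stood at 6.97 in vehicle, 10.51 with CDK2i and 6.49 with EZH2i. Its difference of -4.02 ± 0.03, a 16.3-fold higher level in CDK2i, was the largest of the list as deposited. FOS (chromosome 14, 75745529 to 75748933), its partner in AP-1, stood at 4.356, 8.997 and 5.223 (-3.77 ± 0.03), and FOSB at 0.97, 4.29 and 0.57 (-3.72 ± 0.12). EGR1 (chromosome 5, 137801168 to 137804992), a zinc finger factor induced by ERK signaling, stood at 6.18, 8.78 and 4.89 (-3.89 ± 0.04). DUSP1 (chromosome 5, 172195099 to 172198198), a phosphatase that turns off MAP kinases, stood at 3.15, 7.57 and 3.81 (-3.76 ± 0.07). In each of these genes CDK2i was the high library, well above vehicle and EZH2i alike. The orphan nuclear receptor NR4A1 stood at 4.01, 7.13 and 4.04 (-3.09), equal in vehicle and EZH2i. MYC (6.32, 7.51 and 6.03) and JUND (6.06, 7.17 and 5.50), named after their values were seen, showed the same order at smaller size. The exceptions were FOSL1, another AP-1 subunit, at 4.96, 6.23 and 6.40, which was high in both treated tumors, and SRF, the factor that binds the serum response element, at 4.17, 4.14 and 4.33, which was level in all of them. With the median member set to 0, both of these exceptions turned to -0.18 and -0.16.

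The promoters of immediate early genes hold binding elements for SRF (the CArG box) and for CREB (the cAMP response element). Of the 32 members, 25 had a RefSeq promoter window. The core TGACG was in 17 of these 25 (68%), against 35.3% of the windows of all members and 25% of all windows, and the whole element TGACGTCA, which contains it, was in 4 (16%, against 3.38% and 1.97%). A CArG box was in 2 (8%, against 1.07% and 1.29%), those of EGR1 (difference -3.89) and SRF (0.19). An NF-kB site was in 3 (12%, against 10.2% and 8.71%), and the AP-1 site TGACTCA in 1 (4%, against 3.33% and 4.9%). Bases outside the window were not searched, so a gene without a match may hold an element there. The 250 bases before the start of EGR1, FOS and DUSP1, a zinc finger factor, an AP-1 subunit and a phosphatase, are shown, with CArG boxes and TGACG, read on either strand, in capitals. EGR1 holds 2 CArG boxes and 2 TGACG cores, FOS holds 1 core shortly before its start, and DUSP1 holds 4 cores, of which an overlapping pair makes up 1 whole element.
EGR1, chr5:138465229-138465478, plus strand: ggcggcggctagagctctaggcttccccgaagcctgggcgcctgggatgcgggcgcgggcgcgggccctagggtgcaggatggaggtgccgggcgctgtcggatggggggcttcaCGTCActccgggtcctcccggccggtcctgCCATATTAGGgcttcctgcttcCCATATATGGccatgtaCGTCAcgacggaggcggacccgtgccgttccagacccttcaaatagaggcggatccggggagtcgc
FOS, chr14:75278578-75278827, plus strand: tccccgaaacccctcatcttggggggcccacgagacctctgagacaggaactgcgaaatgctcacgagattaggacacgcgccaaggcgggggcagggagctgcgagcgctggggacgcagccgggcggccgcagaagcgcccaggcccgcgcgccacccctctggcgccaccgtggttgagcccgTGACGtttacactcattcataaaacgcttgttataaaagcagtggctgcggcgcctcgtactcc
DUSP1, chr5:172771196-172771445, minus strand: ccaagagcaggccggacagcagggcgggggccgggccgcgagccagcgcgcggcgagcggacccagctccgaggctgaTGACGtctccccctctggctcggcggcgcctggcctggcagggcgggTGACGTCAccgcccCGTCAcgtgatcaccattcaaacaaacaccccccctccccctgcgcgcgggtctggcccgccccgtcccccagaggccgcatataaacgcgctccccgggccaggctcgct

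**Figure D3:**
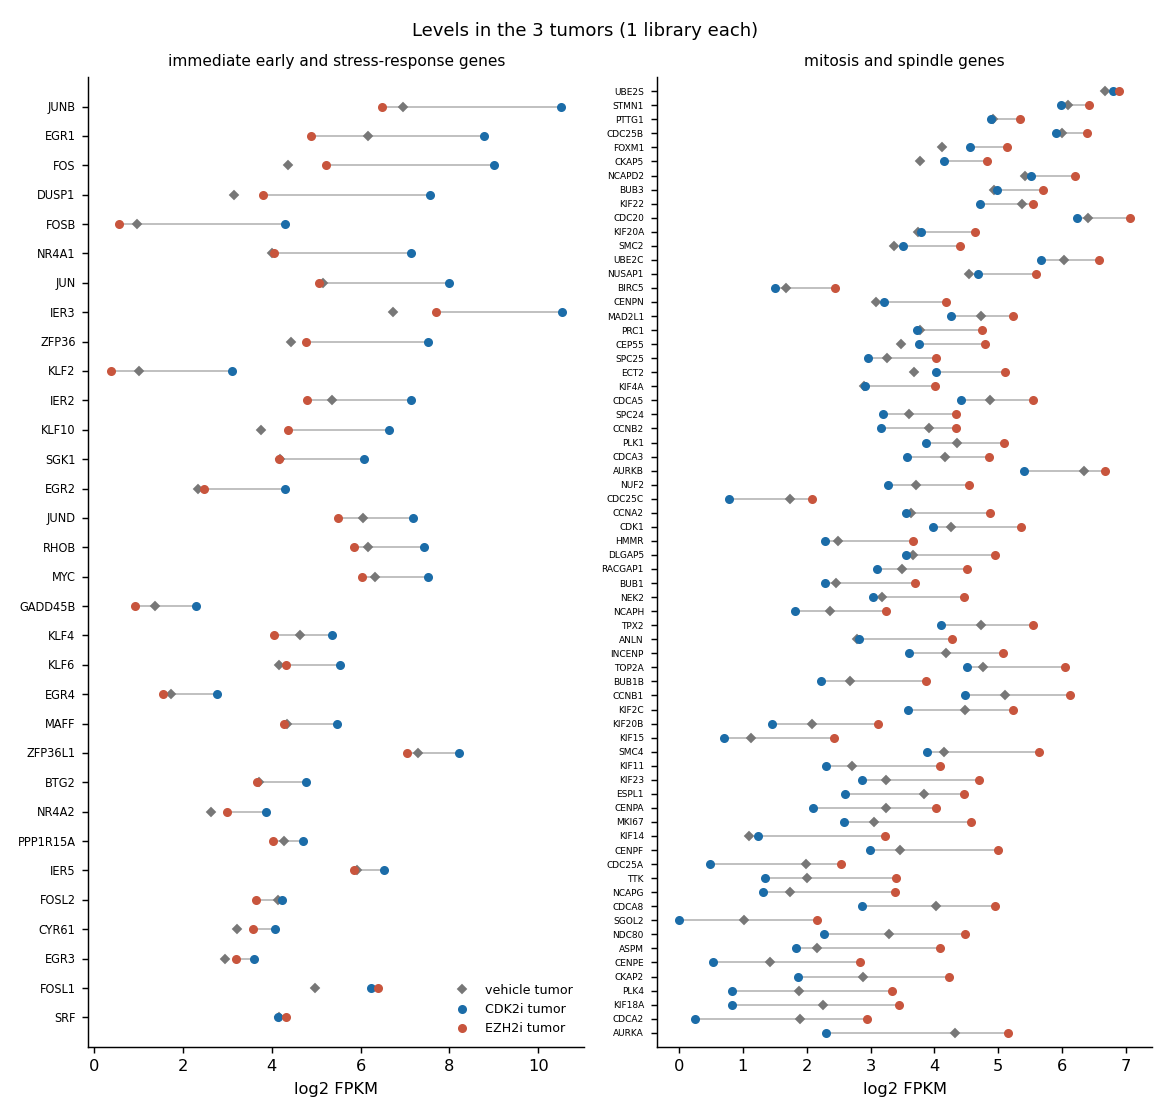
Level (log2 FPKM, horizontal) of each member of the immediate early list (left) and the mitosis list (right) in the vehicle (gray diamonds), CDK2i (blue) and EZH2i (red) tumor, 1 library each, ordered by the difference between the treated tumors, which the gray line spans. CDK2i is the higher treated tumor in 30 of 32 immediate early genes and EZH2i in all 68 mitosis genes.

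Epidermal differentiation genes were the second group with higher levels in CDK2i. Keratins are the intermediate filaments of epithelial cells, where KRT5 and KRT14 mark basal cells, KRT1 and KRT10 cells that have begun to differentiate, and KRT6, KRT16 and KRT17 activated or stressed epithelium. Of 23 listed keratins 21 were members, with a median difference of -1.14 (-1.23 with the trend removed, against -0.26 and -0.39 for members of a like level). Of these 21, 14 were past 2-fold higher in CDK2i (66.7%, against 5.75% of all members and 14.1% of those of a like level). None of the keratins was past 2-fold higher in EZH2i. The most abundant of them led in absolute level, with KRT14 at log2 FPKM 11.26, 12.61 and 11.31 (-1.30) and KRT5 at 10.87, 12.04 and 10.69 (-1.35). KRT16 stood at 9.60, 11.32 and 9.59 (-1.73), KRT17 at 9.28, 10.57 and 8.77 (-1.80) and KRT15 at 5.28, 5.88 and 3.51 (-2.37). For KRT14, KRT5 and KRT16 vehicle and EZH2i were nearly level and CDK2i stood apart, while KRT15 was low in EZH2i alone. KRT13, a keratin of stratified mucosa, had the largest difference of the list at 1.26, 2.93 and -0.84 (-3.77 ± 0.28, from about 426 and 29 fragments). KRT6C (-1.36) shares nearly identical sequence with KRT6A and KRT6B, so its reads may be split among them. Against the list, KRT75 stood at 1.71, 4.23 and 5.15 (0.92) and KRT79 at 3.27, 4.25 and 4.57 (0.32), higher in both treated tumors than in vehicle, where KRT79 turned to slightly below 0 once centred.

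The cornified envelope list holds the structural proteins and enzymes of the outermost epidermis. Of 52 listed genes 37 were members, with a median difference of -0.87 (-1.09 with the trend removed, against 0.16 and -0.14 for members of a like level). Of these 37, 16 were past 2-fold higher in CDK2i (43.2%, against 5.75% of all members) and 1 in EZH2i (2.7%, against 21.4%). KRT10 (chromosome 17 of GRCh37, 38974369 to 38978866) stood at 8.99 in vehicle, 8.99 in CDK2i and 5.41 in EZH2i, a difference of -3.58 ± 0.04. Its partner KRT1 stood at 8.82, 9.72 and 7.04 (-2.68 ± 0.02). For this pair it was the EZH2i tumor that stood apart, below both CDK2i and vehicle. SPRR1A (2.93, 5.01 and 1.92, -3.09 ± 0.23) and SPRR1B (5.36, 7.57 and 5.10, -2.47 ± 0.08) encode small proline-rich proteins that are crosslinked into the envelope, and both were highest in CDK2i. The calmodulin-like CALML5, which binds transglutaminase 3, stood at 7.72, 8.86 and 6.26 (-2.60), and CALML3 at 1.98, 2.89 and 0.07 (-2.82). In the other direction GRHL3, a transcription factor of barrier formation, stood at 1.732, 2.198 and 3.382 (1.18), and LCE3A at 0.95 and 1.56 in the treated tumors from about 10 and 14 fragments, with 0 FPKM listed in vehicle.

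The AP-1 site TGACTCA was in 8 of the 25 promoter windows found for the cornified members (32%), against 3.33% of the windows of all members and 4.9% of all windows. Among these 8, SPRR1A (-3.09), SPRR1B (-2.47), IVL (-1.35) and KRTDAP (-2.08) were past 2-fold higher in CDK2i. ECM1 (-0.06), SBSN (-0.95), SPRR2A (-0.95) and SPRR2F (-0.81) were not past 2-fold. The NF-kB site was in 3 (12%), TGACG in 5 (20%), and TGACGTCA and the CArG box in none of the 25. The 250 bases before the start of SPRR1A, with the largest difference among them, are shown with the site, read on the minus strand, in capitals.
SPRR1A, chr1:152983831-152984080, plus strand: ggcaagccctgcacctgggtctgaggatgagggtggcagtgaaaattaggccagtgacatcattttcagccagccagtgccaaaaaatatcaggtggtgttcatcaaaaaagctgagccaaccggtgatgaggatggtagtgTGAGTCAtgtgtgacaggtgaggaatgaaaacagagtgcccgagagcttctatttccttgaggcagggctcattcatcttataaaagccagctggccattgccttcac

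**Figure D4:**
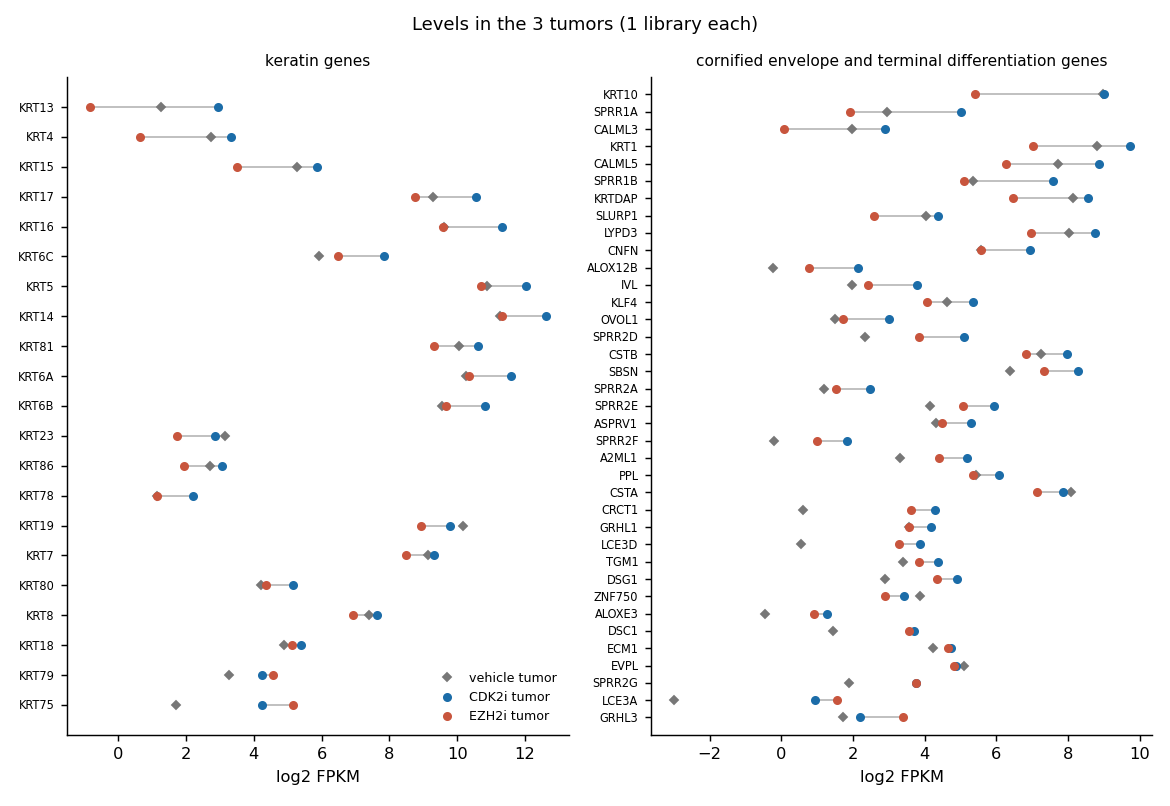
Level (log2 FPKM, horizontal) of each member of the keratin list (left) and the cornified envelope list (right) in the vehicle (gray diamonds), CDK2i (blue) and EZH2i (red) tumor, 1 library each, ordered by the difference between the treated tumors. LCE3A, listed at 0 FPKM in vehicle, is drawn at the left edge. In most genes the blue point lies right of the red, and KRT10 is the gene with vehicle and CDK2i together and EZH2i apart.

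Kallikreins are the proteases that cut the bonds between shedding keratinocytes, and clade B serpins and SLPI are inhibitors of such proteases. Of 20 members of 28 listed, 10 were past 2-fold higher in CDK2i (50%, against 5.75% of all members) and none past 2-fold higher in EZH2i. The median difference was -1.01 (-1.39 with the trend removed, against 0.15 and -0.16 for members of a like level). KLK14 stood at 3.98, 6.68 and 3.62 (-3.05 ± 0.09), KLK5, which starts the kallikrein cascade, at 1.44, 3.45 and 1.39 (-2.05) and KLK7 at 2.40, 3.73 and 1.28 (-2.45). All were highest in CDK2i, with vehicle near EZH2i for KLK14 and KLK5 and between the treated tumors for KLK7. KLK10 and KLK11 differed by -1.73 and -1.68, and SLPI, at 8.31, 8.92 and 7.26, by -1.66. SERPINB1 (0.25) and SERPINB8 (0.31) lay on the other side of 0 as deposited and below it once centred.

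S100A genes encode small calcium-binding proteins, several of them in the same gene cluster as the cornified envelope genes. Of 14 members of 16 listed, 6 were past 2-fold higher in CDK2i (42.9%, against 5.75% of all members) and 1 in EZH2i. The median difference was -0.77 (-0.62 with the trend removed). These genes are at high levels, where members of a like level had medians of -0.38 and -0.43 and 13.5% of them were past 2-fold higher in CDK2i. S100A8 and S100A9, the subunits of calprotectin, stood at 9.54, 9.57 and 7.88 (-1.70) and at 10.09, 10.51 and 8.78 (-1.74). Both were nearly level in vehicle and CDK2i and lower in EZH2i, 3.24-fold and 3.33-fold below CDK2i. S100A7 (psoriasin) and S100A4 had the same order, with differences of -1.37 and -1.41. S100A3, at 5.43, 4.52 and 5.53, was the exception (1.02).

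Desmosome and tight junction genes, which hold epithelial sheets together, split within the list. The median over 21 members of 28 was 0.07 as deposited and -0.55 with the trend removed, and it was -0.28 with the median member set to 0, so its sign depended on the scaling. CLDN4, a claudin, stood at 5.43, 6.17 and 4.41 (-1.76), and the desmosomal proteins PERP (8.93, 9.60 and 8.47, -1.13) and JUP (7.96, 9.12 and 8.01, -1.10) were also past 2-fold higher in CDK2i. TJP1, the tight junction scaffold ZO-1, stood at 2.60, 2.81 and 3.97 (1.16), and CLDN12 differed by 1.03. After the trend was removed no member remained past 2-fold higher in EZH2i and 6 were past 2-fold higher in CDK2i. Over all annotated members these shares were 8.85% and 6.79%.

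The lineage genes that the study's question turns on differed less than the differentiation genes. Of 19 basal lineage members of 22 listed, 6 were past 2-fold higher in CDK2i (31.6%) and none past 2-fold higher in EZH2i. The median was -0.44, and -0.63 with the trend removed. Members of a like level had medians of -0.25 and -0.34, with 9.79% past 2-fold higher in CDK2i and 2.45% in EZH2i. The 6 included keratins named above, the nerve growth factor receptor NGFR (3.04, 3.54 and 2.28, -1.26) and FOXC1, a transcription factor of basal-like breast cancer (5.672, 5.997 and 4.449, -1.55). TP63, the master regulator of basal epithelial cells, went the other way at 4.15, 4.42 and 5.28 (0.87), as did CAV1 (0.77), though with the trend removed both were near 0, at 0.09 and 0.14. Of 13 luminal members of 25 listed, 3 were past 2-fold higher in EZH2i (23.1%, near the 21.4% of all members) and none in CDK2i, with a median of -0.18 (-0.12 with the trend removed). With the median member set to 0 this balance turned, to 1 higher in EZH2i and 3 higher in CDK2i. XBP1, a factor of secretory cells and of the unfolded protein response, stood at 4.58, 3.14 and 5.17 (2.04 ± 0.07), and TFAP2A at 4.45, 3.56 and 4.90 (1.34 ± 0.04), with TFAP2C (1.06) as the third. GATA3, the factor that specifies luminal fate, stood at 4.04, 1.91 and 2.73 (0.83 ± 0.12), below vehicle in both treated tumors. The luminal keratins KRT8 (7.41, 7.65 and 6.92) and KRT19 (10.16, 9.79 and 8.92) had differences of -0.73 and -0.86, and KRT18 (4.89, 5.40 and 5.13) and ERBB2 (4.93, 4.92 and 4.46) of -0.26 and -0.46. As deposited, basal and luminal keratins were thus both lower in EZH2i than in CDK2i, by more in the basal ones. With the trend removed the luminal KRT8, KRT19 and KRT18 were at -0.60, -0.52 and -0.12, and the basal KRT5 and KRT14 at -1.41 and -1.06.

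Hypoxia response and glycolysis genes were higher in CDK2i. Many of these genes are induced by HIF-1 when oxygen is low, and the glycolysis genes among them feed ATP production without mitochondria. Of 43 members of 44 listed, 13 were past 2-fold higher in CDK2i (30.2%, against 5.75% of all members) and none past 2-fold higher in EZH2i. The median difference was -0.63 (-0.996 with the trend removed, where 21 were past 2-fold). Members of a like level had medians of 0.07 and -0.19. DDIT4, an inhibitor of mTORC1, stood at 6.46 in vehicle and 8.34 in CDK2i and was lowest in EZH2i (-2.34 ± 0.03), and BHLHE40, a transcriptional repressor, at 5.88, 7.68 and 5.36 (-2.32 ± 0.03). NDRG1 stood at 9.45, 10.05 and 8.62 (-1.42), the enolase ENO2 at 6.53, 6.77 and 5.37 (-1.40), and the collagen prolyl hydroxylase P4HA2 at 4.98, 5.67 and 4.30 (-1.36). For DDIT4 and BHLHE40 CDK2i stood apart, and for ENO2 vehicle and CDK2i lay together above EZH2i. The kinase PFKFB4 (3.64, 2.54 and 3.37, 0.83) and the demethylase KDM3A (0.86, and 0.13 with the trend removed) went the other way.

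The respiratory chain showed a small shift with 2 large exceptions. Of 80 nuclear-encoded oxidative phosphorylation members of 85 listed, 63 had a difference below 0, with a median of -0.31 (-0.54 with the trend removed). Members of a like level had medians of -0.04 and -0.22. Of the 80, 3 were past 2-fold higher in CDK2i (3.75%, against 5.75% of all members) and 2 in EZH2i (2.5%, against 21.4%). NDUFA4L2 (chromosome 12, 57628686 to 57634498), a paralog of a respiratory subunit that HIF-1 induces, stood at 2.797, 4.279 and -0.394. Its difference of -4.67 ± 0.24, from about 1042 and 37 fragments, was the most negative of all 11092 members as deposited. NDUFA11 (chromosome 19, 5891287 to 5904017), an accessory subunit of complex I, stood at 3.50, 0.78 and 3.33 (2.55 ± 0.12), low in CDK2i alone. NDUFS7 (-1.54) and NDUFB7 (-1.01) lay at -0.75 and -0.31 once the GC trend was removed, and NDUFAF7 (1.45), an assembly factor, at 0.89. The 13 mitochondrially encoded genes had a median of 0.34, close to that of all members.

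HOX genes pattern the body axis and are classical targets of PRC2, which holds them silent outside their domain. Of 33 in the list 7 were members. All 7 were higher in EZH2i, 5 of them past 2-fold, with a median difference of 1.08 (0.86 with the trend removed, against 0.71 and 0.20 for members of a like level). Among members of a like level 35.9% were past 2-fold higher in EZH2i. None stayed past 2-fold once centred, and 1 did with the trend removed. HOXC11 stood at 2.89 in vehicle, 1.27 in CDK2i and 2.53 in EZH2i (1.26 ± 0.14), HOXC6 at 1.62, 0.43 and 1.58 (1.15 ± 0.19) and HOXC13 at 2.93, 1.73 and 2.82 (1.08 ± 0.15). In each of them vehicle and EZH2i lay together and CDK2i was the low tumor. HOXC6, below log2 FPKM 1 in CDK2i, passed the limit on the mean only through EZH2i. Over the list the vehicle level was nearer to EZH2i in 7 of 7 genes and above both treated tumors in 5. Of the 107 developmental transcription factors listed, 27 were members, 15 past 2-fold higher in EZH2i and 2 in CDK2i (median 1.05, and 0.84 with the trend removed). Members of a like level had medians of 0.67 and 0.15 with 33.3% past 2-fold higher in EZH2i, and with the median member set to 0 the list had 5 higher in EZH2i and 4 higher in CDK2i. SIX2 stood at 1.77, 0.38 and 2.40 (2.02 ± 0.22), LHX1 at 1.38, 0.27 and 1.94 (1.67 ± 0.16) and DLX5 at 3.27, 0.41 and 1.81 (1.40 ± 0.26). SIX2, LHX1 and DLX5 likewise passed the limit only through EZH2i. FOXI1, a forkhead factor, was far higher in vehicle than in either treated tumor, at 5.17, 1.84 and 3.47 (1.62). BARX2 (5.71, 5.31 and 4.01) and FOXC1 were the 2 past 2-fold higher in CDK2i. The vehicle level was nearer to EZH2i in 19 of these 27 genes.

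Numbered zinc finger genes, most of them KRAB repressors of transposable elements, were the largest list with a shift. Of 481 listed, 175 were members, 89 of them past 2-fold higher in EZH2i and 5 past 2-fold higher in CDK2i, with a median difference of 1.01 (0.58 with the trend removed). Their low levels bear on this, since the 2439 members of a like level had medians of 0.70 and 0.17 and 35.1% of them were past 2-fold higher in EZH2i. ZNF691 stood at 3.17, 0.21 and 3.15 (2.94 ± 0.23), ZNF436 at 2.88, 0.50 and 3.31 (2.81 ± 0.14) and ZNF830 at 3.17, 0.41 and 3.09 (2.69 ± 0.21). These had nearly the vehicle level in EZH2i and a far lower level in CDK2i. ZNF202, ZNF7 and ZNF584 also had CDK2i as the low tumor, with differences of 2.63, 2.52 and 2.44. Each of these named genes was below log2 FPKM 1 in CDK2i and passed the limit on the mean only through EZH2i, so their low CDK2i level is in part set by that limit. ZNF358 (-1.69) and ZNF385A (-1.52) were the most shifted the other way, followed by ZNF428, ZNF185 and ZNF219.

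The drug targets themselves were measured in each tumor. EZH2 (chromosome 7 of GRCh37, 148504349 to 148581413) stood at 2.94 in vehicle, 2.32 in CDK2i and 3.83 in EZH2i (1.505 ± 0.05, and 0.94 with the trend removed). Its PRC2 partners EED (2.91, 2.25 and 3.50) and SUZ12 (2.35, 2.29 and 3.27) differed by 1.25 and 0.97, although for SUZ12 only 0.14 was left with the trend removed. CDK1 stood at 4.25, 3.97 and 5.35 (1.37, and 0.75 with the trend removed) and CDK2 at 2.88, 2.83 and 3.54 (0.70, and 0.27 with the trend removed). CCNE1, the cyclin that activates CDK2, stood at 2.65, 1.53 and 3.22 (1.69 ± 0.14), and CCNE2, whose mean was below the limit, at 0.39, 0.38 and 1.30. CDK9 (5.24, 4.39 and 4.76) and CDK5 (3.47, 3.23 and 3.07) differed by 0.37 and -0.17, of which the first turned to about 0 once centred. CDK1 and CCNE1 were thus past 2-fold higher in EZH2i as deposited, and CDK2, CDK9 and CDK5 were not past 2-fold. None of these transcripts reports the activity of the inhibited enzyme.

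Of the antigen presentation genes, the class II members were past 2-fold lower in EZH2i and no class I member was past 2-fold as deposited. CD74 and HLA-DRA were the only members among 12 class II genes. CD74 (chromosome 5, 149781200 to 149792532), the invariant chain, stood at 5.59, 4.01 and 2.01 (-1.995 ± 0.09), and HLA-DRA at 3.30, 2.03 and 0.37 (-1.66 ± 0.31). Both were highest in vehicle, lower in CDK2i and lowest in EZH2i. Class II genes are expressed by macrophages as well as by some tumor cells, and CD14 and ITGAM moved with them (3.004, 2.991 and 1.654 for CD14) while CD68 was listed at 0 FPKM in both treated tumors, so the part of other cells was not tested. Over 17 class I members of 18 listed none was past 2-fold in either direction as deposited. Of all members 21.4% were past it toward EZH2i and 5.75% toward CDK2i, and of those of a like level 8.9% and 5.15%. The class I median was -0.28 (-0.34 with the trend removed, against 0.17 and -0.14 for members of a like level). With the median member set to 0, 1 class I member was past 2-fold higher in CDK2i. HLA-C (5.39, 6.10 and 5.15, -0.95) and HLA-E (6.85, 6.92 and 6.32, -0.59) were the most shifted toward CDK2i, and HLA genes vary between people in ways that affect alignment. NLRC5 (0.75) and TAP2 (0.51) lay on the other side. Of 19 interferon-stimulated members of 48 listed, 1 was past 2-fold higher in EZH2i and none in CDK2i (median -0.31, and -0.24 with the trend removed). Over all members these shares were 21.4% and 5.75%. With the median member set to 0 the interferon counts turned to 1 higher in EZH2i and 3 higher in CDK2i. With the trend removed they were 0 and 1. UBE2L6 (3.77, 4.61 and 3.62, -0.99) and IFI27 (1.63, 1.68 and 0.70, -0.98) were lower in EZH2i, and the ubiquitin ligase DTX3L (1.04, 0.15 and 1.89, 1.73 ± 0.15) was higher.

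Replication-dependent histone genes, whose transcripts lack a poly(A) tail, went both ways. Of 22 members of 63 listed, 5 were past 2-fold higher in CDK2i (22.7%, against 5.75% of all members) and 2 past it in EZH2i (9.09%, against 21.4%). The median was -0.19 as deposited and 0.14 with the trend removed, against 0.66 and 0.14 for members of a like level. HIST1H4C had the largest difference (-3.10 ± 0.69) but rested on about 46 and 5 fragments. HIST2H2BE, from about 570 and 223 fragments, stood at 2.98, 3.74 and 2.52 (-1.23 ± 0.11), and HIST1H3G at 1.49, 0.84 and 2.77 (1.94 ± 0.40). Histone genes are near-identical copies, so reads may be split among them.

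**Figure D5:**
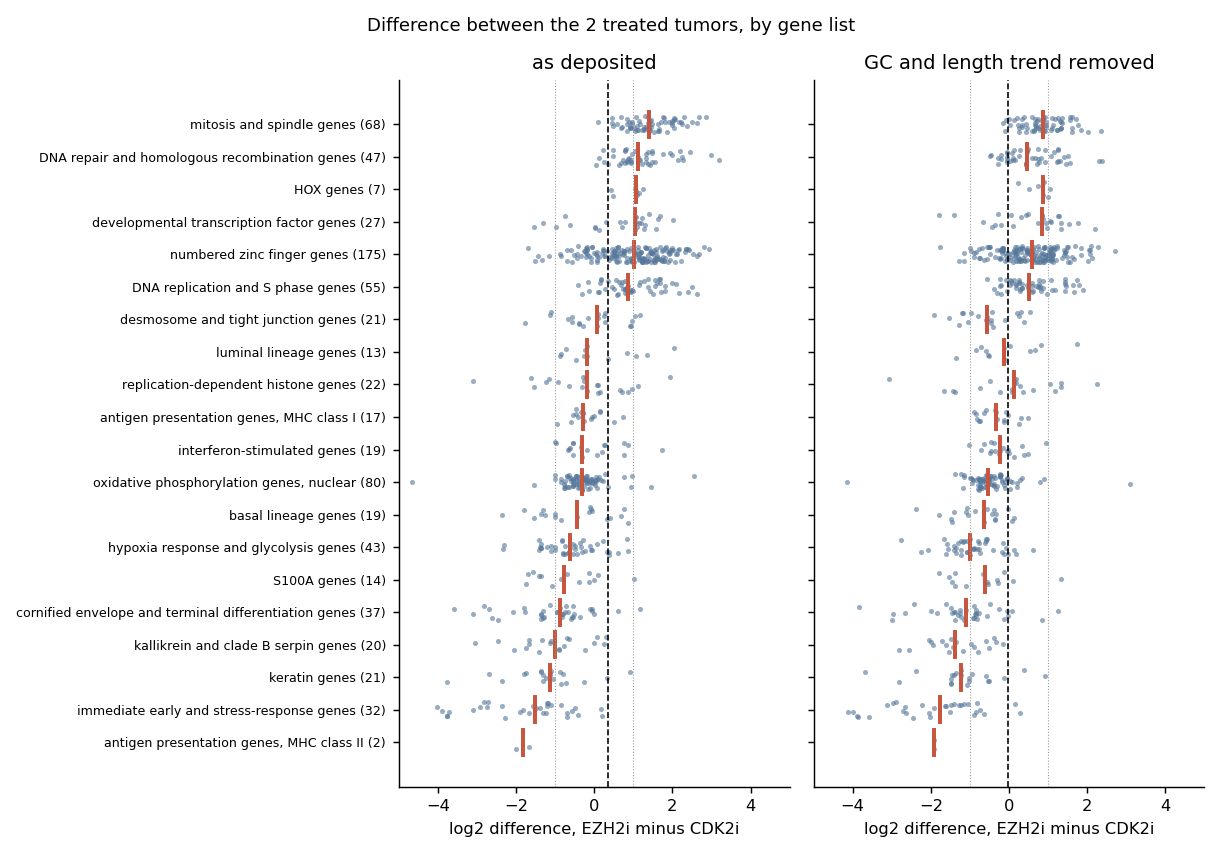
Log2 difference (EZH2i minus CDK2i, horizontal) of each member of the 20 gene lists whose median lay at least 0.5 from that of all members, as deposited (left) and with the GC and length trend removed (right). Points are genes, red bars list medians, the dashed line is the median of all members (0.35 and -0.04), dotted lines mark 2-fold, and numbers in parentheses count members. Mitosis genes have the highest median and MHC class II and immediate early genes the lowest in both panels, and among the lists above 0.8 as deposited the repair (1.13 to 0.47) and mitosis (1.40 to 0.86) medians move furthest toward 0.

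Single genes outside these programs had differences as large. They were ranked among annotated members with a mean above log2 FPKM 3, and the largest difference of all members, 5.90, lay outside that set. Within it PAEP (chromosome 9, 138453602 to 138458801), which encodes the secreted lipocalin glycodelin, was the most shifted toward EZH2i. It stood at 4.12 in vehicle, 1.91 in CDK2i and 6.37 in EZH2i (4.47 ± 0.14, 22.1-fold). TROAP, a protein of spindle and centrosome, stood at 4.60, 2.18 and 5.49 (3.31 ± 0.08). IL8, the neutrophil chemoattractant CXCL8, stood at 3.83, 4.54 and 7.77 (3.23 ± 0.04) and was high in EZH2i alone. By contrast PNRC2 (4.60, 2.96 and 5.70), EFNB2 (4.53, 2.03 and 4.64), PPP1R10 (3.96, 1.95 and 4.44) and TNS4 (5.21, 3.21 and 5.84) were lowest in CDK2i and differed by 2.49 to 2.74. SELRC1 (2.63), TGFB2 (2.49) and GNLY (2.60), a gene best known from cytotoxic lymphocytes, complete the 12 largest with AURKA and CSTF1.

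Toward CDK2i, C6orf15 (chromosome 6, 31079000 to 31080352) was first at 3.80, 5.53 and 1.17 (-4.36 ± 0.22, 20.6-fold). KRT77, a keratin of sweat ducts, stood at 4.89, 5.33 and 1.37 (-3.96), the gap junction gene GJB6 at 6.33, 6.45 and 2.87 (-3.59), and SLC4A11, a membrane transporter of the bicarbonate transporter family, at 6.15, 7.37 and 3.73 (-3.64). In these 4 genes the EZH2i tumor was the low library, also against vehicle. ELF3, an epithelial Ets factor, stood at 3.70, 5.43 and 1.85 (-3.58), and IER5L at 4.35, 6.72 and 3.33 (-3.40). UNC5B-AS1, an antisense transcript, differed by -3.88, and without stranded counting its reads cannot be told from those of UNC5B. The rest of the 12 were KRT10 and the immediate early genes JUNB, EGR1, FOS and DUSP1.

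The position of the vehicle tumor, also 1 library, was counted at the deposited scaling, on which these counts depend. Under that scaling vehicle lay above both treated tumors in 74 of 78 cytosolic ribosomal protein genes and in 13 of 13 mitochondrially encoded genes. The scaling of vehicle against the treated tumors was not tested. Of the 2373 members past 2-fold higher in EZH2i, the vehicle level lay between the treated tumors but nearer to EZH2i in 1009 and nearer to CDK2i in 863, below both in 274 and above both in 227. Of the 638 higher in CDK2i, it lay between them nearer to CDK2i in 293 and nearer to EZH2i in 211, below both in 69 and above both in 65. At this scaling, differences of both kinds, with CDK2i or with EZH2i as the tumor further from vehicle, were thus common in each direction.

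The other 23 gene lists had medians between -0.10 and 0.80, less than 0.5 from the median of all members. They held 78 cytosolic ribosomal protein genes (-0.10), 34 proteasome genes (0.18), 108 splicing factor genes (0.65, and 0.07 with the trend removed), 53 translation factor genes (0.34) and 33 p53 target and apoptosis genes (0.80, and 0.21 with the trend removed).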

How the data were processed

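The measured samples were 1 vehicle, 1 CDK2i and 1 EZH2i tumor, grouped by their labels. The authors deposited log2 FPKM values per gene symbol, where -9 stands for an FPKM of 0. The submitters' processing notes name CASAVA, STAR and hg19, and the counter, the gene lengths and the scaling between libraries are not given in the sources used here. From the deposited log2 values the difference EZH2i minus CDK2i was taken for each gene, and a gene was called past 2-fold when it was above 1 or below -1. The p-value cutoff of the study's limma test could not be applied to 1 library per condition. All columns of the table were mapped to a sample.

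Members and gene lists were chosen with earlier results of these data known. The 43 program lists and 6 marker lists were all computed, and 20 program lists were described in depth because their median lay at least 0.5 from that of all members, as deposited or with the GC and length trend removed. Processed pseudogenes caught by name patterns were taken out of the lists after the data were seen. Named genes were the 12 largest differences in each direction among annotated members with a mean above 3, up to 6 leading and 2 opposite members of each described list, the drug targets with their partners, and lineage genes. Other genes were named after their values were seen.

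GC content, length and exons came from GENCODE 44 lifted to GRCh37, matched to 10287 of the 11092 members by symbol, 717 of them by an older symbol. The trend, of degree 3 in both GC content and log2 length, was fitted as a polynomial without cytosolic ribosomal protein genes and tested on simulated data. Depth was recovered from the step that 1 fragment makes in low values. With annotated exon lengths only 39.5% to 41.0% of the values under 20 fragments came out within 0.05 of a whole number, so fragment numbers and the SEs made from them are approximate, no count test was run, and the SEs cover counting error only. Promoter windows came from RefSeq. Python 3.11.15, numpy 2.4.6, pandas 2.3.3 and matplotlib 3.10.9 were used.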

Additional observations from a re-analysis of the deposited data

Results flagged for a closer look

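Among list genes outside the comparison, SPRR3, a cornified envelope gene, stood at log2 FPKM 2.851 in the CDK2i tumor and at -3.05 in vehicle and was listed at 0 FPKM in EZH2i, so it has no difference on the log2 scale. ZNF888, a zinc finger gene, stood at 1.188 in EZH2i and at -0.89 in vehicle and was listed at 0 FPKM in CDK2i. Both were noted because a signal appeared in genes that the limit on zero values left out.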

How the results depend on the processing

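No paired analysis was possible because each condition has 1 library, and leaving out a library leaves no comparison. The genes past 2-fold higher in EZH2i numbered 2373, and the genes past 2-fold higher in CDK2i 638, as deposited. With the median member set to 0 they were 1290 and 1216, and with the GC and length trend removed 910 were higher in EZH2i. With a fold above 1.5 they were 4296 and 1392, with a fold above 3, 807 and 226, with a mean above log2 FPKM 3, 694 and 388, and with no limit on the mean 6101 and 2188. Where a minimum of log2 FPKM 3 was set on the larger of the 2 values, 1295 were higher in EZH2i. Equal summed FPKM shifts every difference by 0.092, and by 0.18 without ribosomal protein and mitochondrially encoded genes. The causes of these shifts were not tested.

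Of the 20 described list medians, 18 kept their sign under every alternative and 2 did not, those of the desmosome and histone lists, and 15 of the other 23 changed sign. Some of the 18 came near 0 under an alternative. The luminal median reached -0.003, class I -0.098, interferon -0.133 and nuclear oxidative phosphorylation -0.134. The 2-fold line was crossed as follows. With the median member set to 0, the cornified list moved to -1.22, the S100A list to -1.12, repair to 0.78, zinc fingers to 0.66, HOX to 0.73 and developmental factors to 0.70. With the trend removed, the cornified list moved to -1.09, mitosis to 0.86, repair to 0.47, zinc fingers to 0.58, HOX to 0.86 and developmental factors to 0.84. With a pseudocount of 1, kallikreins and serpins moved to -0.97, repair to 0.95, zinc fingers to 0.81, HOX to 0.73 and developmental factors to 0.78, and with a pseudocount of 0.1 zinc fingers moved to 0.97. With equal sums, kallikreins and serpins moved to -0.92. With equal sums without ribosomal protein and mitochondrially encoded genes, they moved to -0.83, keratins to -0.96 and S phase to 1.06. Among named genes, 988 of the values under alternatives stayed on their side of 2-fold, 50 went below it and 24 went past it, and none past 2-fold changed sign.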

Other observations

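Cytokine genes, named here after their values were seen, split between the tumors. Of 39 members of 50 listed, 13 were past 2-fold higher in EZH2i (33.3%) and 9 past 2-fold higher in CDK2i (23.1%). The shares were 21.4% and 5.75% over all members and 12.6% and 4.6% over members of a like level. The median of the list was 0.52, and 0.08 with the trend removed. In the order vehicle, CDK2i, EZH2i, IL1A stood at log2 FPKM 1.17, 2.08 and 4.51, a difference of 2.43, and IL1B at 2.45, 3.33 and 5.58 (2.25). CXCL1, a ligand of the IL8 receptor, stood at 7.25, 6.94 and 8.97 (2.04), and CSF3, the neutrophil growth factor G-CSF, at -0.72, 1.63 and 3.86 (2.23). These were highest in EZH2i. LIF, at 2.86, 6.12 and 3.51 (-2.61), TNF, at 0.74, 4.08 and 2.43 (-1.66), and the iron-binding LCN2, at 6.48, 7.64 and 5.49 (-2.15), were highest in CDK2i.

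Genes of other signaling pathways were also named after their values were seen, and as lists they lay near all members. Of 28 TGF-beta, BMP and ID members 8 were past 2-fold higher in EZH2i (28.6%) and 3 higher in CDK2i, and of 38 Notch and WNT members 9 (23.7%) and 5, where 21.4% and 5.75% of all members passed. Their medians with the trend removed were 0.08 and 0.07. The SMAD targets ID1 (7.12, 8.84 and 6.42, -2.42) and ID2 (3.71, 4.31 and 2.23, -2.08) were highest in CDK2i, while the ligand gene BMP4 (3.09, 1.05 and 3.54, 2.50) was lowest there. The Notch target HES1 stood at 6.34, 8.71 and 6.01 (-2.69), and the WNT antagonist DKK1 at 2.01, 0.42 and 3.18 (2.75). HEXIM1 and MEPCE, which hold P-TEFb inactive in the 7SK particle, stood at 4.74, 2.59 and 4.55 and at 5.26, 3.25 and 5.21, differences of 1.96 in both, with CDK2i the low tumor. CCNT1, the cyclin of CDK9, stood at 1.93, 1.27 and 3.08 (1.81). The death receptor gene FAS stood at 1.23, -0.09 and 2.50 (2.60).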
